A study of Mus musculus with 7 samples.

Results

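A set of 32 genes of radial glia and astrocytes was examined in mouse whole neocortex, in 4 CKO samples against 3 wild type (WT) samples. The set was defined by name, from factors that pattern the cortical progenitors to genes of mature astrocytes. Its members were chosen with earlier results of these data known. Each gene was read from the probe set whose annotation gives that symbol alone, and from the brightest of these where a gene had several. All 32 genes had such a probe set, among 19936 genes with a symbol of their own on the array. Of the 32, 31 passed a filter on dim probe sets and entered the test over 16144 genes, and Gjb6 did not pass. CKO names samples whose genotype is given as COUP-TFI_Nex-Cre, and the others are given as wild type, all in strain C57BL/6. The sources used here do not give the age of the tissue, whether animals were pooled, or whether the wild type samples carried Cre or an unrecombined COUP-TFI allele. COUP-TFI is the orphan nuclear receptor encoded by Nr2f1, and Nex-Cre is a Cre recombinase expressed from the Neurod6 locus, mainly in postmitotic glutamatergic neurons. Radial glia and astrocytes are not cells in which this driver is known to be mainly active. Values are log2 signals, and each difference is CKO minus WT.

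Radial glia are the progenitors that line the ventricle of the developing cortex, divide there and carry newborn neurons along their processes. Transcription factors such as Pax6, Emx2 and Sox2 set their identity and position, and Notch signalling from neighbouring cells keeps them undifferentiated through the Hes repressors. Later in development many radial glia become astrocytes, which clear glutamate, couple through gap junctions and supply neurons with metabolites. Several genes, among them Slc1a3, Fabp7 and Sox9, are used as markers at both stages.

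The series as a whole gave few calls. With limma and Benjamini-Hochberg adjustment, 4 of 16144 genes, or 0.0248%, passed an adjusted p of 0.05, and no member was among them. The lowest adjusted p of a member was 0.648. An unadjusted p under 0.05 was reached by 1096 genes, or 6.79%. Nr2f1 was between 10.60 and 10.79 on CKO arrays and between 10.88 and 11.16 on WT arrays. Where its probe set lies relative to the deletion is unknown here, and these values are no check of the labels. WT 38 stood apart from the other 6 arrays along the first principal component, which held 27.7% of the variance, so results are given with and without it. Along the second component, with 23.3%, WT 6 lay at -12.1, WT 27 at -5.80 and the other 5 arrays between 1.73 and 6.79. Arrays came from 3 lots, inferred from array identifiers in the labels. Lot 1 held CKO 1 and CKO 4, lot 2 held CKO 34, CKO 43, WT 27 and WT 38, and lot 3 held WT 6.

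Radial glia and astrocyte genes lay slightly above WT in CKO neocortex. Of the 31 tested, 29 had a positive difference, against 58.9% of all genes tested, and the 2 below WT were Ptprz1 and S100b. The median difference was 0.10, against 0.014 over all genes tested, and the largest was 0.29, a 1.23-fold difference, for Emx2. An unadjusted p under 0.05 was reached by 8 members, all higher in CKO, where 4.17% of all genes tested were higher at that p. These were Sox2, Sox9, Emx2, Gli3, Notch1, Acsbg1, Glul and Mt3. All 4 CKO arrays lay above all 3 WT arrays for 8 members, where 5.39% of all genes did so. These were Sox2, Pax6, Notch1, Notch2, Prom1, Acsbg1, Glul and Aqp4. For Notch1, Notch2 and Prom1 the lowest CKO array and the highest WT array were almost level. Sox2, Notch1, Acsbg1 and Glul met both descriptions, Glul by the brighter of its probe sets. In bulk tissue, more cells of a type and more RNA per cell cannot be told apart.

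**Figure D1:**
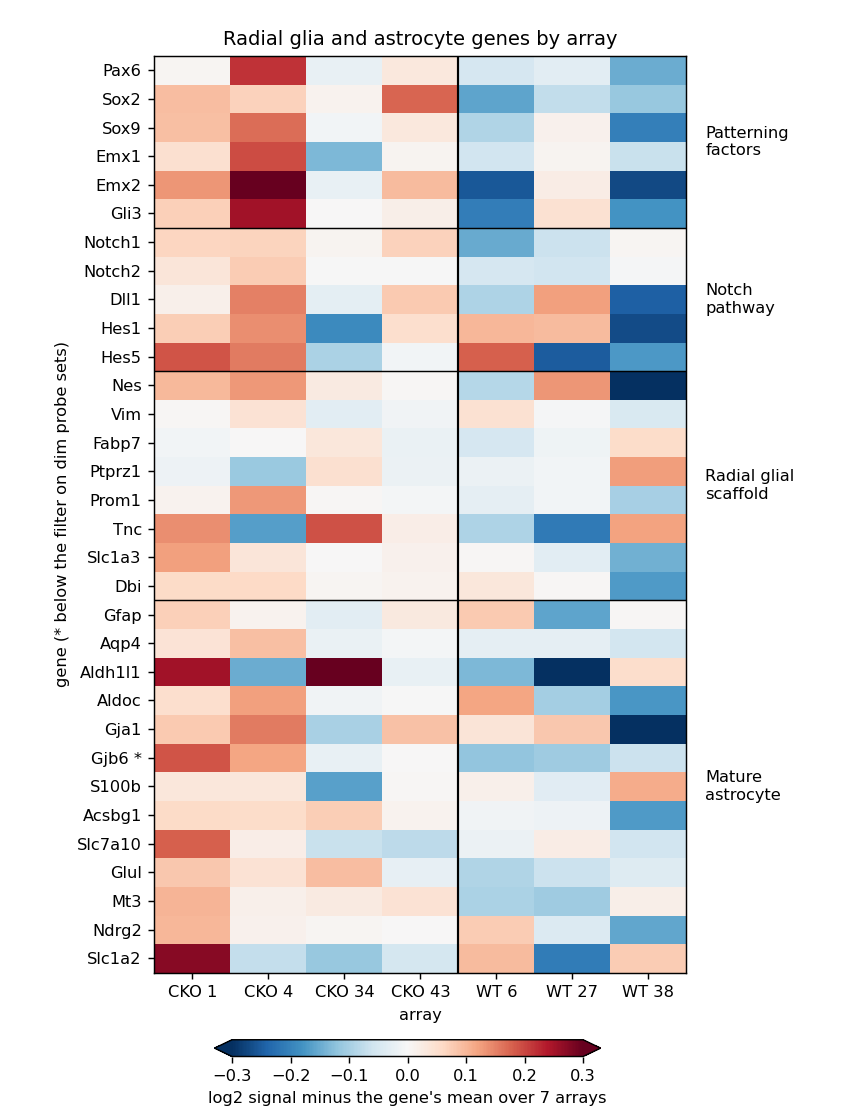
Log2 signal of each of the 32 genes on each array, minus that gene's mean over the 7 arrays, with CKO arrays on the left, WT arrays on the right and genes grouped by role. CKO 4 is red for most patterning factors, WT 38 is blue for many genes, and Aldh1l1 and Tnc follow another order of arrays.

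The patterning factors had the largest median difference of the 4 role groups. All 6 were positive, against 58.9% of all genes tested, with a median of 0.18. At an unadjusted p under 0.05, 4 of them were higher in CKO, where 4.17% of all genes were. Sox2 (probe set 10491477), a transcription factor that maintains neural progenitors, was at 11.89 on CKO 1, 11.87 on CKO 4, 11.81 on CKO 34 and 11.97 on CKO 43. It was at 11.64 on WT 6, 11.73 on WT 27 and 11.69 on WT 38. Each CKO array was above each WT array. The difference was 0.20 (SE 0.048, 95% interval 0.09 to 0.31), a 1.15-fold difference, with an adjusted p of 0.648 by limma. WT 38 was not the lowest array for Sox2, and the difference without it was 0.20 (SE 0.054).

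Emx2 (probe set 10464391), a homeobox factor of caudal and medial cortex, had the largest difference and a wide spread within both groups. It was at 10.80, 10.96, 10.64 and 10.76 on CKO 1, CKO 4, CKO 34 and CKO 43, against 10.41, 10.69 and 10.39 on WT 6, WT 27 and WT 38. CKO 34 lay below WT 27, so the groups overlapped. The difference was 0.29 (SE 0.093, adjusted p 0.711 by limma), and 0.24 (SE 0.105) without WT 38. Gli3 (probe set 10403727), a zinc finger factor that mediates and limits Hedgehog signalling, had 11.57, 11.75, 11.50 and 11.51 on those CKO arrays and 11.29, 11.54 and 11.31 on those WT arrays. WT 27 again lay within the CKO range. Its difference was 0.20 (SE 0.081), with 0.17 (SE 0.094) without WT 38 and 0.08 (SE 0.089) within lot 2.

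Sox9 (probe set 10382328), a factor of radial glia and of early astrocytes, had 11.87, 11.94, 11.77 and 11.81 on the CKO arrays and 11.69, 11.79 and 11.57 on the WT arrays, named here and below in the order used for Emx2. WT 38 was lowest and WT 27 lay above CKO 34. The difference was 0.16 (SE 0.063), or 0.11 (SE 0.059) without WT 38. Pax6 (probe set 10474312), which drives neurogenesis from cortical radial glia, had 11.03, 11.25, 11.01 and 11.06 in CKO and 10.98, 11.00 and 10.88 in WT. The groups did not overlap, but CKO 34 was only just above WT 27. Its difference was 0.13 (SE 0.064) and its 95% interval, -0.01 to 0.28, held 0. Without WT 38 it was 0.10 (SE 0.070). Emx1, a homeobox factor of the dorsal telencephalon, averaged 10.49 ± 0.136 in CKO neocortex (n = 4, SD) against 10.42 ± 0.041 in WT neocortex (n = 3, SD). Its difference of 0.07 (SE 0.072) was the smallest of the patterning factors, and CKO 34 was its lowest array.

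**Figure D2:**
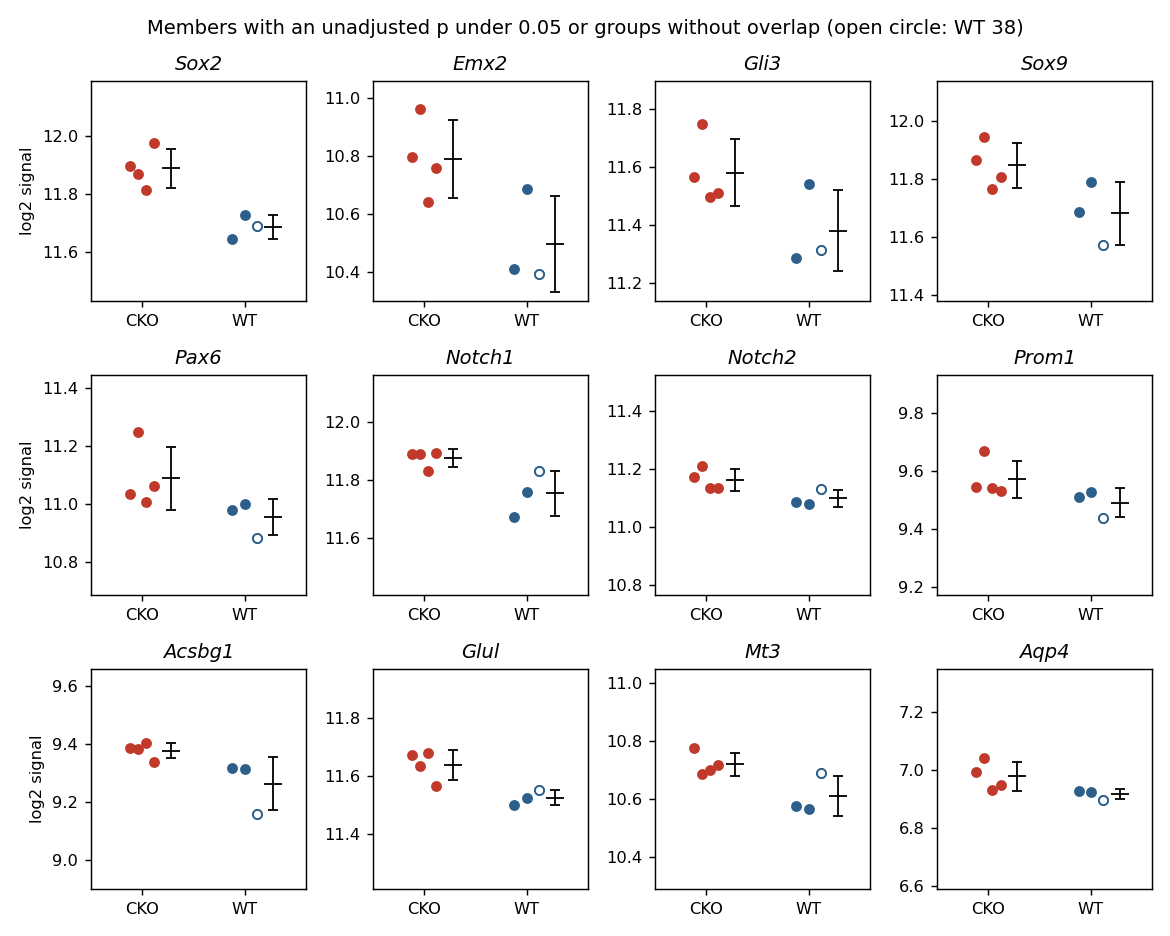
Log2 signal per array of the 12 members with an unadjusted p under 0.05 or groups without overlap, CKO on the left and WT on the right, with mean and SD beside the points and WT 38 as an open circle. Each panel spans the same range of log2 signal, and the CKO and WT points part clearly for Sox2 and narrowly for Notch2, Prom1 and Aqp4.

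The upstream sequences of Sox2 and Emx2 are shown because these genes had the smallest p and the largest difference among the members. They are the 250 bases before the annotated start in RefSeq, build GRCm38.p6, on the strand of the gene. Capitals mark the nuclear receptor motif AGGTCA, on either strand, and Emx2 has none.
Sox2, chr3:34649745-34649994, plus strand: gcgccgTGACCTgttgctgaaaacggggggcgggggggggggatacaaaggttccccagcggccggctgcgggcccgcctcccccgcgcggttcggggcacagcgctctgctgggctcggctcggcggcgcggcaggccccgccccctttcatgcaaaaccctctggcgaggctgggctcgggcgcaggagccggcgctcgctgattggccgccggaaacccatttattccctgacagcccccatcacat
Emx2, chr19:59458440-59458689, plus strand: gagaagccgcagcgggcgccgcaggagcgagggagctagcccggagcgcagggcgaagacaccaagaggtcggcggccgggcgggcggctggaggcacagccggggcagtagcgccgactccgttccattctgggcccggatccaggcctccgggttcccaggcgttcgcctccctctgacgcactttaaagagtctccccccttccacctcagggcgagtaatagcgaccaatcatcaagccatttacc
The Sox2 match lies on the minus strand and starts 244 bases before the annotated start. RefSeq windows were matched for 29 of the 32 genes, in 37 windows. Of these windows 7 held AGGTCA on either strand, and so did 14% of 32851 windows of the same length. A direct repeat of AGGTCA with 1 base between the copies, searched on both strands, was in 0 of the 37 and in 0.0335% of all windows. A match here is a description of letters, not of binding.

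Over all 7 arrays, CKO and WT did not overlap for the receptors Notch1 and Notch2, and they overlapped for the ligand Dll1 and the Hes repressors. Of all genes tested, 5.39% were higher in CKO without overlap. The receptor Notch3, outside the set, overlapped too. Receptors were not tested against repressors. The 5 differences were all positive, against 58.9% of all genes tested, and their median was 0.12. At an unadjusted p under 0.05, 1 gene was higher in CKO, where 4.17% of all genes were. Notch1 (probe set 10481056), a receptor cleaved on binding its ligand, had 11.89, 11.89, 11.83 and 11.89 in CKO and 11.67, 11.76 and 11.83 in WT. WT 38 was the highest WT array and lay just below CKO 34. The difference was 0.12 (SE 0.046, 95% interval 0.02 to 0.23, adjusted p 0.723 by limma), and it was 0.16 (SE 0.041) without WT 38. Notch2 (probe set 10494595), a second receptor of radial glia, had 11.17, 11.21, 11.14 and 11.13 in CKO and 11.09, 11.08 and 11.13 in WT. Its groups did not overlap, but CKO 43 at 11.135 was only just above WT 38 at 11.134. Its difference of 0.06 (SE 0.038) had a 95% interval of -0.02 to 0.15. Without WT 38 it was 0.08 (SE 0.038).

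Dll1, a Notch ligand presented by differentiating cells, averaged 10.18 ± 0.079 in CKO neocortex (n = 4, SD) against 10.05 ± 0.186 in WT neocortex (n = 3, SD), a difference of 0.13 (SE 0.085). That difference was 0.04 (SE 0.075) without WT 38, its lowest array, and 0.22 (SE 0.067) without WT 27. Hes1, a repressor induced by Notch, averaged 9.51 ± 0.144 in CKO neocortex (n = 4, SD) against 9.47 ± 0.211 in WT neocortex (n = 3, SD). Its difference of 0.04 (SE 0.108) turned to -0.08 (SE 0.088) without WT 38, which was its lowest array at 9.23. Hes5, a second Notch-induced repressor, had 10.32, 10.29, 10.04 and 10.13 in CKO and 10.31, 9.88 and 9.96 in WT. WT 6 lay among the highest CKO arrays, and the difference was 0.14 (SE 0.111), or 0.10 (SE 0.13) without WT 38. At this number of arrays, the 95% intervals ran from -0.21 to 0.29 for Hes1 and from -0.11 to 0.40 for Hes5. Differences in either direction lay inside them.

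The window upstream of Hes5 is of interest because RBPJ, the factor that carries the Notch signal to DNA, binds sites that hold GTGGGAA. That motif, searched on both strands, was in 3 of the 37 member windows, of Hes5, Aldoc and Tnc, and in 5.42% of all windows. Hes5 alone held 2 matches, shown with 10 bases on each side and the match in capitals, from RefSeq build GRCm38.p6.
Hes5 distal match, chr4:154960687-154960713, plus strand: ggcgagcgcgTTCCCACagcccggaca
Hes5 proximal match, chr4:154960830-154960856, plus strand: gccgccgagtGTGGGAAcggccgcggc
The distal match is read on the minus strand and the proximal match on the plus strand.

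The scaffold and surface genes of radial glia had smaller differences. Of 8 tested, 7 were positive, against 58.9% of all genes tested, and the median was 0.08. With limma 0 had an unadjusted p under 0.05, where 4.17% of all genes were higher at that p. Vim, an intermediate filament of radial glia, averaged 13.62 ± 0.032 in CKO neocortex (n = 4, SD) against 13.61 ± 0.045 in WT neocortex (n = 3, SD). Its difference was 0.003 (SE 0.039), with a 95% interval of -0.09 to 0.09. Fabp7, the brain lipid-binding protein, averaged 13.97 ± 0.024 in CKO neocortex (n = 4, SD) against 13.96 ± 0.054 in WT neocortex (n = 3, SD), a difference of 0.005 (SE 0.040) with an interval of -0.09 to 0.10. For these 2 classical radial glial markers, the brightest of the members, differences in log2 signal beyond about 0.10 in either direction lay outside the intervals. Whether signals this bright follow the amount of RNA in proportion was not tested. Nes, the intermediate filament nestin, differed by 0.15 (SE 0.092), but only 0.04 (SE 0.069) without WT 38, where it was at 11.51 against 11.73 on WT 6 and 11.94 on WT 27.

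Prom1 (probe set 10529824), the membrane protein prominin of apical progenitors, had 9.55, 9.67, 9.54 and 9.53 in CKO and 9.51, 9.53 and 9.44 in WT. The groups did not overlap, CKO 43 and WT 27 were close together, and the difference was 0.08 (SE 0.048), or 0.05 (SE 0.049) without WT 38. Slc1a3 (probe set 10427590), the glutamate transporter GLAST, had 11.52, 11.43, 11.40 and 11.41 in CKO and 11.40, 11.37 and 11.25 in WT. WT 6 lay level with CKO 34, and the difference was 0.10 (SE 0.050, 95% interval -0.02 to 0.22). Without WT 38, its lowest array, it was 0.06 (SE 0.045). Dbi, a binder of acyl-CoA esters, differed by 0.08 (SE 0.054), and by 0.01 (SE 0.037) without WT 38. Ptprz1, a receptor phosphatase of radial glia, had a difference of -0.06 (SE 0.054), with CKO 4 its lowest array and WT 38 its highest, and -0.01 (SE 0.049) without WT 38. Tnc, an extracellular matrix glycoprotein, differed by 0.11 (SE 0.102) and is described with Aldh1l1 below.

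Genes of mature astrocytes had differences of similar size to the scaffold genes. Of 13 genes, 12 were tested, 11 were positive, against 58.9% of all genes tested, and the median was 0.08. An unadjusted p under 0.05 was reached by Glul, Acsbg1 and Mt3, all 3 higher in CKO, where 4.17% of all genes were. Glul (probe set 10350753), glutamine synthetase, had 11.67, 11.63, 11.68 and 11.57 in CKO and 11.50, 11.52 and 11.55 in WT. The groups did not overlap, and the difference was 0.11 (SE 0.042, adjusted p 0.722 by limma) and 0.13 (SE 0.044) without WT 38. A second probe set with the symbol Glul (10374453) was nearly as bright, with a mean of 11.55 against 11.59. It went the other way, with a difference of -0.04, so the 2 probe sets disagree. Acsbg1 (probe set 10593723), an acyl-CoA synthetase, had 9.39, 9.38, 9.40 and 9.34 in CKO and 9.32, 9.32 and 9.16 in WT. WT 38 was far below the other WT arrays, and the difference of 0.11 (SE 0.049) was 0.06 (SE 0.035) without it. Mt3 (probe set 10574018), a metallothionein of the brain, had 10.77, 10.69, 10.70 and 10.71 in CKO and 10.58, 10.56 and 10.69 in WT. Here WT 38 overlapped CKO 4, and the difference of 0.11 (SE 0.045) was 0.15 (SE 0.039) without it.

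The upstream sequence of Glul is shown because Glul, in the brighter of its probe sets, was the astrocyte enzyme without overlap whose difference did not rest on WT 38. It is the 250 bases before the annotated start in RefSeq build GRCm38.p6, with AGGTCA in capitals, starting 57 bases before the start on the plus strand.
Glul, chr1:153899679-153899928, plus strand: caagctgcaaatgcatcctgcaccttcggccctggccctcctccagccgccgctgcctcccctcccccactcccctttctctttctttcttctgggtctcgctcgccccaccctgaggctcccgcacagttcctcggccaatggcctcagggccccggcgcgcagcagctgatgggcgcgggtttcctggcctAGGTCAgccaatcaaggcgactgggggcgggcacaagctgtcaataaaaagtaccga

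Several defining markers of mature astrocytes read near or below the filter. The filter on dim probe sets stood at a log2 signal of 6.84. Gjb6, the gap junction protein connexin 30, was below it, at 6.47, 6.40, 6.26 and 6.28 in CKO and 6.16, 6.17 and 6.21 in WT. These groups did not overlap. In a fit without the filter its difference was 0.17 (SE 0.058, unadjusted p 0.0184 and adjusted p 0.732 by limma). Aqp4 (probe set 10457614), the water channel of astrocyte endfeet, lay 0.11 above the filter on average, with 6.99, 7.04, 6.93 and 6.95 in CKO and 6.93, 6.92 and 6.90 in WT. Its groups did not overlap, with CKO 34 just above WT 6, and its difference was 0.06 (SE 0.040). Gfap (probe set 10391798), the intermediate filament of mature astrocytes, lay 0.50 above the filter and had 7.41, 7.35, 7.31 and 7.37 in CKO and 7.42, 7.18 and 7.34 in WT. WT 6 held the highest value, WT 27 the lowest, and the difference was 0.05 (SE 0.059, 95% interval -0.09 to 0.18). S100b, a calcium-binding protein, lay 0.54 above the filter and differed by -0.05 (SE 0.061), or -0.01 (SE 0.064) without WT 38, its highest array. Slc1a3, which radial glia also express, lay 4.56 above the filter, and Aldh1l1 2.23.

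Other astrocyte genes overlapped between the groups. Gja1, the gap junction protein connexin 43, averaged 9.94 ± 0.108 in CKO neocortex (n = 4, SD) against 9.81 ± 0.234 in WT neocortex (n = 3, SD). Its difference of 0.13 (SE 0.106) was -0.003 (SE 0.070) without WT 38, where Gja1 was at 9.54 against 9.92 on WT 6 and 9.97 on WT 27. Aldoc, a glycolytic aldolase, differed by 0.09 (SE 0.072) and Ndrg2, a protein of astrocyte cytoplasm, by 0.07 (SE 0.058). Without WT 38 these were 0.03 (SE 0.070) and 0.01 (SE 0.050). Slc1a2, the glutamate transporter GLT-1, differed by 0.02 (SE 0.109), and Slc7a10, an amino acid transporter that carries serine, by 0.03 (SE 0.065). Slc1a2 was highest on CKO 1 at 10.07 and lowest on WT 27 at 9.58.

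Aldh1l1 and Tnc ordered the arrays differently from the rest of the set, a feature noticed after their values were seen. Aldh1l1 (probe set 10540034), a folate enzyme widely used as an astrocyte marker, had 9.32, 8.92, 9.43 and 9.05 in CKO and 8.93, 8.71 and 9.12 in WT. Its difference of 0.26 (SE 0.138) was the second largest of the set, but the groups overlapped, and it was 0.36 (SE 0.149) without WT 38. Tnc (probe set 10513739) had 11.78, 11.48, 11.84 and 11.67 in CKO and 11.55, 11.43 and 11.77 in WT. Its difference was 0.20 (SE 0.10) without WT 38, and 0.27 (SE 0.067, adjusted p 0.468 by limma) without CKO 4 and WT 38, where its groups did not overlap. Without WT 27, its lowest array, it was 0.03 (SE 0.109). Both genes placed the arrays in the same order, from CKO 34 through CKO 1, WT 38, CKO 43, WT 6 and CKO 4 to WT 27. Markers of striatum, averaged per array, were likewise highest on CKO 34 (0.43 above the mean of the 7 arrays) and lowest on WT 27 (-0.40). Their part in the differences of Aldh1l1 and Tnc was not tested.

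**Figure D3:**
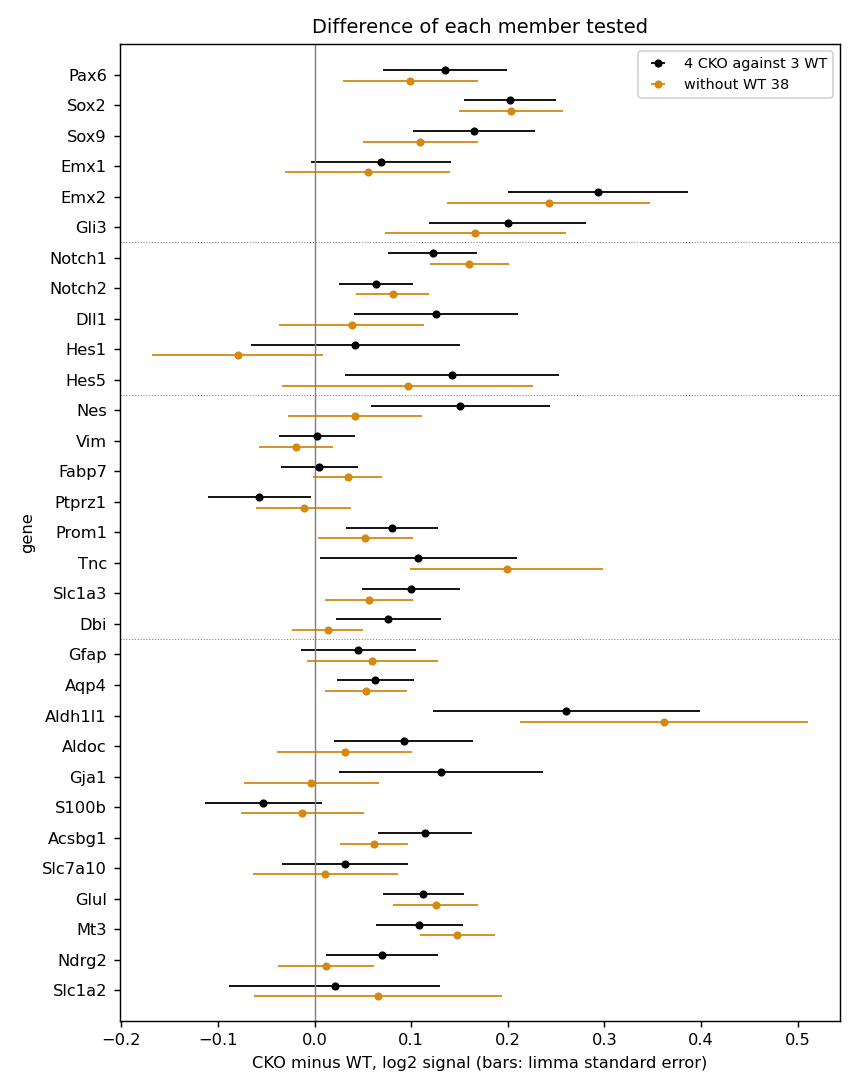
CKO minus WT difference in log2 signal of each of the 31 members tested, over all 7 arrays (black) and without WT 38 (orange), with limma standard errors and dotted lines between the role groups. Most points lie right of 0, and those of Nes, Gja1, Hes1, Dll1 and Dbi move towards or past 0 without WT 38, while Sox2 stays in place.

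Early genes and mature astrocyte genes had median differences of similar size. The 19 patterning, Notch and scaffold genes had a median difference of 0.11, and the 12 mature genes tested had 0.08. Averaged per array and set against the mean of the 7 arrays, the early genes were at 0.06, 0.10, -0.01 and 0.03 on CKO 1, CKO 4, CKO 34 and CKO 43, and at -0.05, -0.02 and -0.11 on WT 6, WT 27 and WT 38. The mature genes were at 0.11, 0.03, 0.005 and -0.001 on the CKO arrays and at 0.004, -0.08 and -0.06 on the WT arrays. CKO 4 was highest for the early genes and CKO 1 for the mature ones. The early mean minus the mature mean was 0.010 ± 0.052 in CKO neocortex (n = 4, SD) and -0.013 ± 0.071 in WT neocortex (n = 3, SD). The groups overlapped, and the difference of 0.024 between them was smaller than either SD. It was -0.0022 within lot 2. With 1 array left out it ranged widely, to 0.0012 without WT 6 and to 0.065 without WT 27, and it was 0.042 without CKO 1. Without WT 27, the lowest CKO array (-0.046) lay above both remaining WT arrays (-0.058 and -0.051).

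The values of the set leaned on particular arrays. For 15 of the 31 members tested WT 38 held the lowest value, as it did for 30.8% of all genes tested. CKO 4 held the highest value for 13 members and for 18.9% of all genes tested. Over all 31 members CKO arrays averaged between -0.005 and 0.08 relative to the mean of the 7, and WT arrays between -0.09 and -0.03. Over all genes tested the range was -0.015 to 0.031 for CKO arrays and -0.026 to 0.009 for WT arrays.

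Without WT 38 the direction of most members held and the median was smaller. Of 31 members 26 were positive, against 53.1% of all genes tested, and the median was 0.06, against 0.006 over all genes tested. An unadjusted p under 0.05 was reached by 5 members, all higher in CKO, where 5.00% of all genes were. They were Sox2, Notch1, Glul, Mt3 and Aldh1l1, of which 4 were among the 8 over all arrays. All CKO arrays lay above the remaining WT arrays for 9 members, where 11.7% of all genes did so. Over all genes 1, or 0.00619%, passed the adjustment. With CKO 4 left out as well, a setting chosen after the data were seen, 26 members were positive, against 50.6% of all genes tested, and the median was 0.05. Then 6 members, all higher in CKO, had an unadjusted p under 0.05, where 3.49% of all genes were higher at that p. The arrays did not overlap for 11 members higher in CKO, where 13.6% of all genes were, and for 1 lower in CKO (Hes1), where 13.0% were.

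Within lot 2, with 2 CKO and 2 WT arrays, 25 of 31 members were positive, against 46.4% of all genes tested, and the median was 0.09. Only Hes5 had an unadjusted p under 0.05 there, where 1.08% of all genes were higher at that p, and no member passed the adjustment in limma. The arrays did not overlap for 14 members higher in CKO, where 13.1% of all genes were, and for 1 lower in CKO (Slc7a10), where 17.3% were. The differences were 0.19 (SE 0.072) for Sox2, 0.16 (SE 0.116) for Emx2, 0.07 (SE 0.054) for Notch1 and 0.09 (SE 0.059) for Glul. Lot 2 holds WT 38 as 1 of its 2 WT arrays, so it is no check on that array.

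Other genes of the same cells, taken from lists of further radial glial, astrocyte and Notch genes, gave larger medians for radial glia than for astrocytes or Notch; these lists too were chosen with earlier results known, and the lists were not tested against each other. Of 32 further radial glial genes tested, 30 were positive, against 58.9% of all genes tested, with a median of 0.12. At an unadjusted p under 0.05, 11 were higher and 1 was lower in CKO, where 4.17% and 2.61% of all genes were, and 0 passed the adjustment in limma. Sox21, a progenitor transcription factor, differed by 0.24 (SE 0.069), Fgfr2, a fibroblast growth factor receptor, by 0.18 (SE 0.051) and Gas1, a Hedgehog co-receptor, by 0.16 (SE 0.051). For these 3 the groups did not overlap. Lifr, the receptor of leukemia inhibitory factor, was the 1 with a negative difference at that p, -0.18 (SE 0.064). Without WT 38, 28 of the 32 were positive, against 53.1% of all genes tested, and the median was 0.10. Within lot 2, 26 were positive, against 46.4% of all genes tested, and the median was 0.07.

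Of 31 further astrocyte genes tested, 21 were positive with a median of 0.06, against 58.9% positive among all genes tested. At an unadjusted p under 0.05, 5 were higher and 1 lower in CKO, where 4.17% and 2.61% of all genes were. Without WT 38, 18 were positive and the median was 0.03, and within lot 2 these were again 18 and 0.03. Of all genes tested, 53.1% and 46.4% were positive in these settings. Kcnj10, an inwardly rectifying potassium channel, differed by 0.19 (SE 0.056), and Plpp3, a lipid phosphatase, by 0.15 (SE 0.049). Slc4a4, a bicarbonate cotransporter, was the 1 below WT at that p, with a difference of -0.34 (SE 0.115). It had 9.39, 9.09, 9.49 and 9.49 in CKO and 9.52, 9.71 and 9.88 in WT, without overlap. Of 27 further Notch pathway genes, 19 were positive with a median of 0.04, and 2 had an unadjusted p under 0.05, both higher in CKO, where 4.17% of all genes were. Without WT 38 the median was 0.03 and 1 gene was higher at that p. Within lot 2 the direction turned, with 13 of 27 positive, against 46.4% of all genes tested, and a median of -0.010. Notch3, a receptor also expressed by mural cells, differed by 0.18 (SE 0.067), Dll3, a ligand-like protein that inhibits Notch, by 0.16 (SE 0.071) and Lfng, a glycosyltransferase that modifies Notch, by 0.23 (SE 0.108). No gene of these 3 lists passed the adjustment over all genes with limma.

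**Figure D4:**
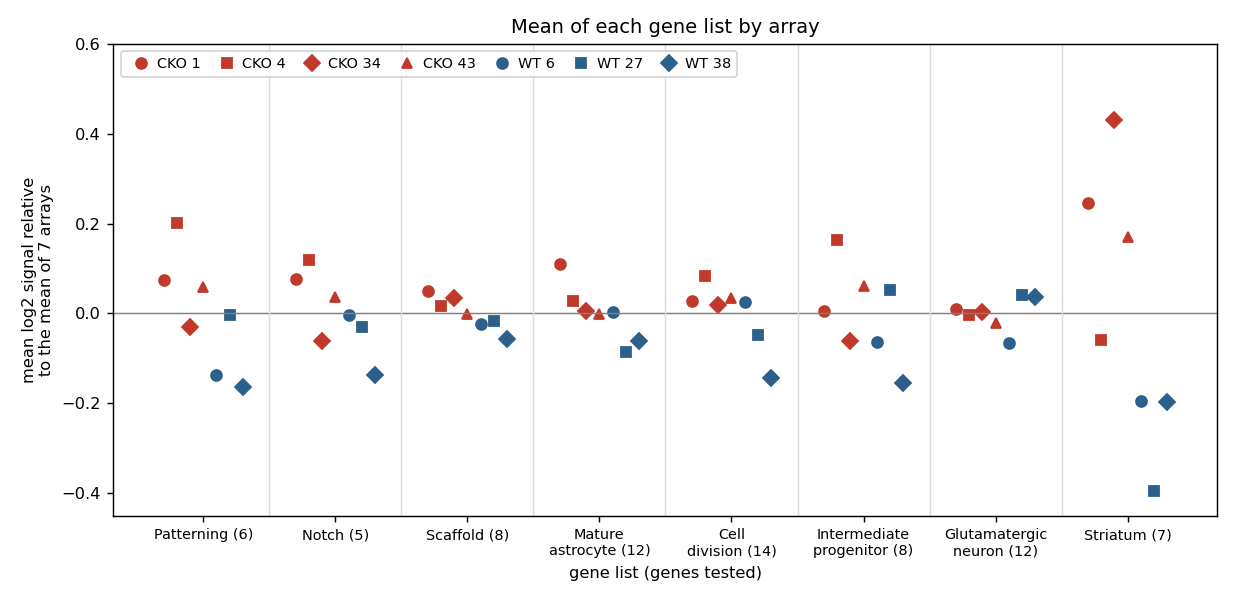
Mean log2 signal of each gene list on each array, relative to the mean of the 7 arrays, for the 4 role groups of the set and 4 lists of other cells, with CKO arrays in red and WT arrays in blue and the number of genes tested in brackets. CKO 4 is highest and WT 38 lowest for patterning, Notch, cell division and intermediate progenitor genes, while striatal markers are highest on CKO 34 and lowest on WT 27.

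Markers of other progenitors were highest on CKO 4 and lowest on WT 38, as the early genes were, but parted from them elsewhere. On WT 6 the early genes were at -0.05 and the cell division genes at 0.03. On WT 27 the early genes were at -0.02 and the intermediate progenitor genes at 0.05. Of 14 cell division genes tested, from a list of 15, 13 were positive, against 58.9% of all genes tested, with a median of 0.11. They averaged between 0.02 and 0.08 on CKO arrays, and 0.03, -0.05 and -0.14 on WT 6, WT 27 and WT 38. All 8 intermediate progenitor genes were positive, with a median of 0.09. They were at 0.005, 0.16, -0.06 and 0.06 on the CKO arrays and -0.06, 0.05 and -0.16 on the WT arrays. As for the patterning factors, CKO 4 was highest and WT 38 lowest in both lists. Red blood cell genes, 3 tested of 5 listed, were also highest on CKO 4 (0.45) and lowest on WT 38 (-0.75). At an unadjusted p under 0.05 by limma, 5 cell division genes and 1 intermediate progenitor gene were higher in CKO, where 4.17% of all genes were. Without WT 38, 10 of the 14 cell division genes were positive, against 53.1% of all genes tested, with a median of 0.06. Of the 8 intermediate progenitor genes 6 were, with a median of 0.07. Within lot 2 these were 13 with a median of 0.14 and 7 with a median of 0.06, where 46.4% of all genes were positive. There 11 cell division genes were higher in CKO without overlap, where 13.1% of all genes were. The part of these in the differences of the set was not tested.

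The remaining marker lists were not highest on CKO 4. Over all genes tested, 58.9% were positive. Glutamatergic neuron markers, 12 tested of 13 listed and 6 positive, had a median of 0.008. Their mean lay between -0.02 and 0.01 on CKO arrays and -0.07 and 0.04 on WT arrays. Single markers went in opposite directions. At an unadjusted p under 0.05 by limma, 2 were higher and 1 lower in CKO, where 4.17% and 2.61% of all genes were. Bcl11b differed by 0.15 (SE 0.040), Tbr1 by 0.14 (SE 0.057) and Neurod6, whose locus carries the driver, by -0.20 (SE 0.057). None of these overlapped between the groups. Striatal markers, 7 tested of 10 listed and all positive, had a median of 0.43 and lay between -0.06 and 0.43 on CKO arrays and -0.40 and -0.20 on WT arrays. Meningeal and choroid plexus markers, 7 tested of 9 listed and all positive, had a median of 0.22, with ranges of -0.05 to 0.23 in CKO and -0.16 to 0.005 in WT. By limma, 5 striatal and 4 meningeal or choroid plexus markers were higher in CKO at an unadjusted p under 0.05, where 4.17% of all genes were. The striatal median was 0.41 without WT 38 and 0.42 within lot 2. The meningeal and choroid plexus median was 0.24 without WT 38 and 0.16 within lot 2. Of 7 oligodendrocyte markers tested, from a list of 8, 6 were positive, of 8 endothelial and mural markers 6 and of 8 microglial markers 4. These 3 lists were highest on CKO 1 (0.21, 0.11 and 0.08), the array on which the mature astrocyte genes were also highest. Their part in the result was not tested.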

How the data were processed

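Total RNA of mouse whole neocortex was measured on 7 one-colour Affymetrix arrays, 4 CKO and 3 WT, each with an RNA integrity number of 10 and 0.2 µg of input, per the labels. Arrays are named by group and label number, and no number is shared between groups, so nothing could be paired. No label says that samples came from separate animals, so the p-values cover only the spread between these arrays, which may be technical. The deposited values are log2 signals that the authors computed by RMA, with Affymetrix Expression Console named in the submitters' processing notes. The sources used here give neither its version nor a build. Ranked signals of the arrays lay within 0.0256 of each other. No 2 arrays were the same: the smallest median difference between a pair was 0.052. The number of arrays limits the precision.

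The platform annotation gave 1 gene symbol to 21786 of 35468 probe sets, several to 1621 and none to 12061. Probe sets with a mean below the 25th percentile were left out, and the brightest stood for each symbol. All 16144 genes were fitted with limma 3.58.1 (functions lmFit and eBayes, R 4.3.3). Residual degrees of freedom were 5 and prior ones 3.28, and p-values were adjusted by Benjamini-Hochberg at 0.05. Errors beside differences are limma's standard errors (SE). The fit was tested on simulated data. Symbols of all 32 members matched RefSeq GRCm38.p6 by Entrez identifier. Figures were drawn with matplotlib 3.10.9.

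The members and lists were chosen with earlier results of these data known, so lists are given by counts and medians beside all genes tested, with no test. All 32 members are named, those with an unadjusted p under 0.05 or without overlap, and Gfap, Aqp4 and Slc1a3, with every array's value, and up to 3 genes of each further list by p. Hes1, Hes5, Nes, Gja1, Aldh1l1, Tnc, Slc1a2 and Lifr were given single array values or named beyond this rule after their values were seen. Alternatives were quantile normalization, the filter, averaging of probe sets, a variance trend, array weights, array lot, a threshold of 0.1 and leaving out arrays.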

Additional observations from a re-analysis of the deposited data

Results flagged for a closer look

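Among 39 sets of 4 CKO values (the 32 members and 7 means per array), 5 had an array whose distance from its nearest neighbour exceeded Dixon's 95% critical share of the range of the 4, where chance gives about 1 in 20. WT, with 3 arrays, was not examined. CKO 34 was low for Notch1 (11.83) and S100b (7.22). CKO 4 was high for Prom1 (9.67). CKO 1 was high for Ndrg2 (12.52) and Slc1a2 (10.07).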

How the results depend on the processing

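Members with a positive difference numbered 25 to 30 under all alternatives. The 30 were of 32 members tested without a filter, and 27 of 28 were positive with the filter at the 50th percentile. Of all genes tested, 58.9% were positive over all arrays, 53.1% without WT 38 and 46.4% within lot 2. Of 462 member differences recomputed, 440 kept their direction, 0 passed the adjustment in limma, and the lowest adjusted p was 0.313. The count of all genes called, 4, was 1 with array weights, 0 with array lot as a block, 0 within lot 2, and 1 to 6 with 1 array left out. Members at an unadjusted p under 0.05 by limma, 8 over all arrays, numbered 7 with probe sets averaged and 3 with array weights. They numbered 3 with the lot block and 1 within lot 2. With 1 array left out they numbered 2 (without CKO 1) to 7 (without WT 27). There were 4 without CKO 4, 5 without CKO 43 and 5 without WT 38. The share of all genes higher in CKO at that p was 4.17% over all arrays and 4.16% with probe sets averaged. It was 2.20% with array weights, 1.39% with the lot block and 1.08% within lot 2. It was 2.37% without CKO 1, 7.68% without WT 27, 2.31% without CKO 4, 3.74% without CKO 43 and 5.00% without WT 38. Members without overlap, 8 over all arrays, numbered 7 with probe sets averaged, where 5.41% of all genes were higher without overlap. They numbered 15 within lot 2 (14 higher and 1 lower in CKO, where 13.1% and 17.3% of all genes were). With 1 array left out they numbered 8 to 13, all higher. The 13 came without WT 6, where 10.5% of all genes were higher without overlap, and without WT 27, where 16.1% were. The early minus mature difference, 0.024, was 0.0012 to 0.065 with 1 array left out. The median over members was 0.046 without CKO 4 and WT 38. With 1 array left out it was 0.056 (without WT 38) to 0.11, and over early genes 0.056 (without WT 38) to 0.12.

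The 22 differences that changed sign belonged to 8 members, and the cause was not tested. With the lot block and within lot 2, Emx1 was -0.034, Fabp7 -0.013, Slc1a2 -0.017 and Slc7a10 -0.054. Both settings give the same differences by design, because lot 1 held only CKO arrays and lot 3 only a WT array. Each was nevertheless counted among the 22 and among the differences recomputed. With array weights, Hes1 was -0.014, Slc7a10 -0.010 and Vim -0.0086. With 1 array left out, Fabp7 lay between -0.019 and 0.034, Gfap between -0.021 and 0.097, Gja1 between -0.0034 and 0.21, Hes1 between -0.080 and 0.11, Slc1a2 between -0.078 and 0.075, Slc7a10 between -0.024 and 0.062 and Vim between -0.019 and 0.026. No paired analysis was possible because the groups share no replicate number. Signal near the filter limits what Aqp4, Gfap, S100b and Gjb6 can show.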
